A study of Mus musculus with 6 samples.

Results

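Transcript levels of 8 transcription factors, Rax, Lhx2, Six3, Six6, Nkx2-1, Zic1, Sox2 and Sox9, were measured in the cells of the mouse hypothalamus. They were taken by name from the 16411 genes of the deposited count table, and all 8 were in it. Whole cells came from male ob/ob mice, which lack leptin, aged 11 weeks. Every mouse had received 3 µg of FGF1 R50E, a mutant form of fibroblast growth factor 1, into the brain's ventricles and was killed 5 days later. Of 6 labelled samples of 1 mouse each, 4 (mice 3, 4, 30 and 34) had cells in the table. All carried the same strain and treatment, so no effect of either was estimated, and the comparisons below are between cell types within mice.

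Tanycytes are elongated glial cells that line the floor and lower walls of the third ventricle, ependymal cells are its ciliated lining, and astrocytes fill the tissue around it. The hypothalamus and the eye field arise under homeodomain factors that bind DNA through a shared fold, among them RAX, LHX2, SIX3, SIX6 and NKX2-1, and tanycytes retain several of them in the adult. SOX2 and SOX9 bind DNA through an HMG box and mark neural progenitors and glia, and ZIC1 is a zinc finger factor of the dorsal neural tube.

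The 4 mice gave 20151 cells. Per mouse there were 3005 to 7386 cells and 3299971 to 8856079 UMIs (unique molecular identifiers, that is, counted molecules), and 194 of 19954 distinct cell barcodes occurred in more than 1 mouse. The submitters' labels were used: Tany (tanycytes), Epend (ependymal cells), Astro (astrocytes), OPC (oligodendrocyte precursors), COP (committed precursors), Olig (oligodendrocytes), Endo (endothelial cells), Micro (microglia) and VLMC (vascular and leptomeningeal cells). In 6 of the 8 types for which each mouse had 20 cells or more, the type's own marker list had the highest summed level. In tanycytes the astrocyte list summed to 2315 CPM (UMIs per 1000000 UMIs of the sum) against 1775 CPM for the tanycyte list without Rax, and in COP the oligodendrocyte list summed to 24646 CPM against 7519 CPM for the COP list.

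The positions of the genes in mouse GRCm38.p6, per RefSeq, were chr2:38339271-38369737 for Lhx2, chr17:85613608-85626191 for Six3, chr12:72939882-72944899 for Six6 and chr12:56531935-56536908 for Nkx2-1. Zic1 lay at chr9:91358058-91365768, Sox2 at chr3:34649995-34652461 and Sox9 at chr11:112782210-112787757. All are protein-coding. Lhx2, Six3 and Sox2 overlap the noncoding genes Gm27197 and Gm13584, Six3os1 and Sox2ot, and Zic1 overlaps Zic4. Of these overlapping genes only Zic4 was a row of the count table, and how reads in an overlap were assigned is not given in the sources used here.

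The 250 bases before the start site are shown for Lhx2, Six3 and Nkx2-1, 3 genes that were highest in the same cells, and for Sox2, which was not. The start site that RefSeq's promoter table uses for Six3 lies inside the span given above. The windows, from RefSeq on GRCm38.p6, were chr2:38339031-38339280 (plus strand, the first of 2 Lhx2 start sites), chr17:85620584-85620833 (plus strand), chr12:56536909-56537158 (minus strand) and chr3:34649745-34649994 (plus strand). Capitals mark the letters AAGTG or CACTT, the core bound by NK2 homeodomain proteins, and ACAAT or ATTGT, a core bound by SOX proteins, read on both strands.
Lhx2: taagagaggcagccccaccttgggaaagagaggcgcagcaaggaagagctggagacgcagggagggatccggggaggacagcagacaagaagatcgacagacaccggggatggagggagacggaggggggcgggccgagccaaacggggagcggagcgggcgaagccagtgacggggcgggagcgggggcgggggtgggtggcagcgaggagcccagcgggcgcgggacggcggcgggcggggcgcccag
Six3: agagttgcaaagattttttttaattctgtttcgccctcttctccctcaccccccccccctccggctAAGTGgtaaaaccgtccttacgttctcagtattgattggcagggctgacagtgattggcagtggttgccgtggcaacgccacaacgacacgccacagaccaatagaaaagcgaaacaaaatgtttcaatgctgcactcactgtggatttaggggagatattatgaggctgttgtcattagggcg
Nkx2-1: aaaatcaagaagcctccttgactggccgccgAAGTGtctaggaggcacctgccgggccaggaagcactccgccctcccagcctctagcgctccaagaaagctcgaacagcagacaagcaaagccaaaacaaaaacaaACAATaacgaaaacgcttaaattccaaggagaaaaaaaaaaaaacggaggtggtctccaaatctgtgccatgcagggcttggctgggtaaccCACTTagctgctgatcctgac
Sox2: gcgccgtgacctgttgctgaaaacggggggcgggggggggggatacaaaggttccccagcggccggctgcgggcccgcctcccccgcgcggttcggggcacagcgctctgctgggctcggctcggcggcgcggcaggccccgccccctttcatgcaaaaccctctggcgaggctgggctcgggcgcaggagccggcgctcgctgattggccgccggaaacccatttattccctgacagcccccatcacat
The Nkx2-1 window held 2 matches of the NK2 core and 1 of the SOX core, and the Six3 window held 1 of the NK2 core. The Lhx2 and Sox2 windows held neither. Among 32851 RefSeq windows of this length, 40.7% held the NK2 core and 27.7% the SOX core. TAATTA, a core bound by many homeodomain proteins and its own reverse complement, was in none of these 4 windows and in 4.84% of all. A match describes letters only.

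Tanycytes held the highest level of 5 factors, Rax, Lhx2, Six3, Six6 and Nkx2-1. Levels were set beside those of ependymal cells and astrocytes, the neighbours along and behind the ventricular wall. A call needed an adjusted p under 0.05 in edgeR's quasi-likelihood test and a log2 fold change beyond 1 in either direction. Against ependymal cells 3 of 6 factors tested were called, all higher, where 19.8% of all genes tested were called and 6.73% were called higher. The adjusted p alone was passed by 6 of 6, beside 46.3% of all genes, though Nkx2-1 did not pass it with DESeq2 (adjusted p = 0.082, and 0.0029 to 0.082 over all alternatives). Against astrocytes 4 of 6 were called, all higher, beside 21.2% of all genes and 9.9% called higher, and the adjusted p alone was passed by 5 of 6, beside 51.8%. The median log2 fold change of the factors tested was 1.55 and 1.92 in these comparisons, against 0.03 and -0.03 over all genes tested. These counts and medians describe the members that passed the filter on low counts and support nothing beyond it. Six6 and Zic1 did not pass it. Against ependymal cells the filter's cutoff was met in 4 of 4 tanycyte sums by Rax, Lhx2 and Six3, but in 0, 2 and 3 of 4 ependymal sums. Against astrocytes Lhx2 met it in 2 of 4 astrocyte sums, and Rax, Six3 and Nkx2-1 in 4 of 4. Cell type labels of this kind rest on the cells' own expression, so these p-values describe the labels.

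**Figure D1:**
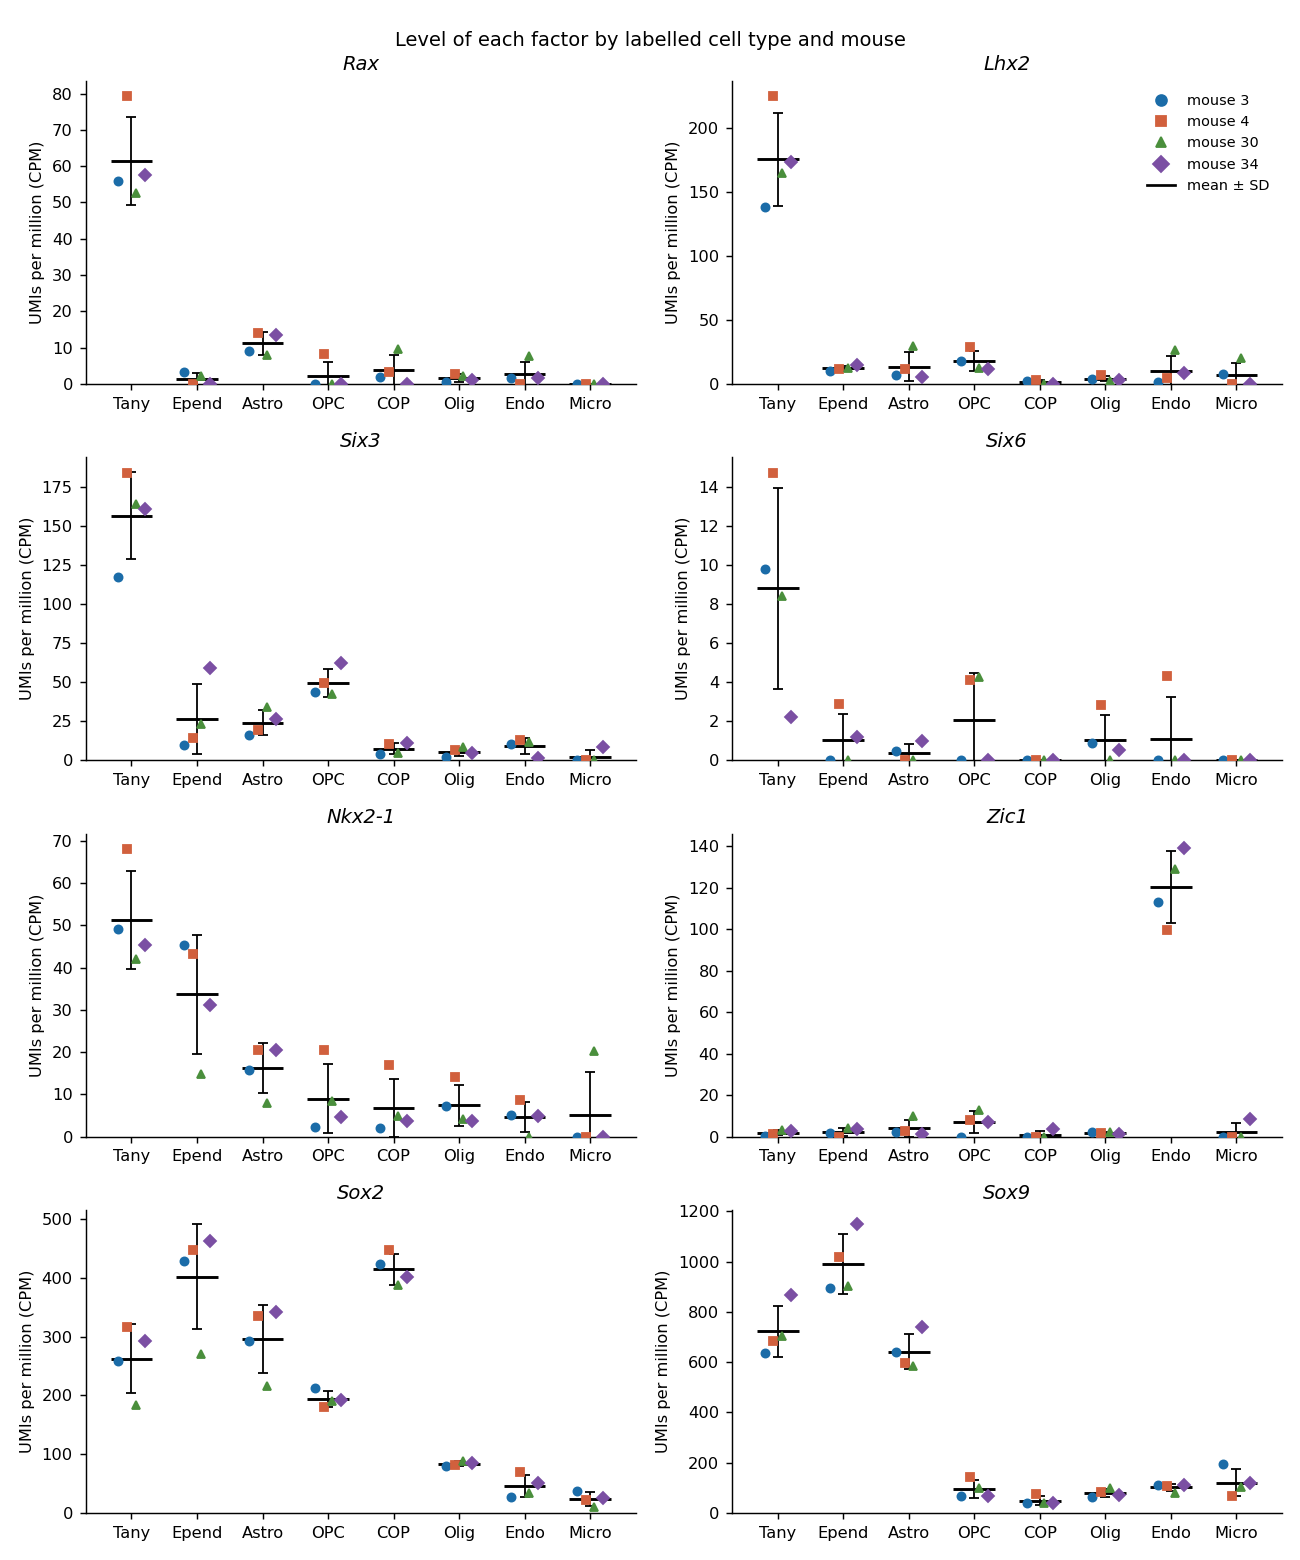
Level of each factor (y axis, CPM) in the 8 labelled types for which each mouse had 20 cells or more (x axis). Points are mice, and bars are the mean and SD of 4 mice. Rax, Lhx2, Six3, Six6 and Nkx2-1 have their highest mean in tanycytes, Zic1 in endothelial cells, Sox2 in COP and Sox9 in ependymal cells.

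Rax, a homeodomain factor needed for the eye field and the ventral hypothalamus, had 56.0, 79.4, 52.7 and 57.7 CPM in the tanycytes of mice 3, 4, 30 and 34. Astrocytes of the same mice had 9.07, 14.1, 8.01 and 13.5 CPM, and ependymal cells 3.23, 0, 2.11 and 0 CPM from 3 UMIs in all. Every tanycyte value lay above every value of the other types. The log2 fold change of tanycytes was 2.35 (SE 0.18, adjusted p = 2.3e-13) against astrocytes. Against ependymal cells the fitted value was 5.44 (SE 0.40). Rax passed the filter on low counts there through tanycytes alone, so it had to differ, and no p is given. The value rests on the few ependymal UMIs and was 6.43 without mouse 3 and 4.85 without mouse 34. Astrocytes ranked next by mean, with 62 Rax UMIs at a pooled 11.3 CPM (95% exact Poisson interval 8.67 to 14.5). They were above COP in 3 of 4 mice, and COP of mouse 30 held 9.57 CPM on 2 UMIs, above its astrocytes. Oligodendrocytes, with a like total, held 7 UMIs at 1.23 CPM (0.493 to 2.53). Rax in astrocytes stood at 18.2% of its tanycyte level, and the tanycyte list without Rax stood at 6.56% of its own there. In microglia no Rax UMI was counted, and the 95% exact Poisson interval reached 9.33 CPM.

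Rax was not tested between astrocytes and ependymal cells after the filter on low counts. Without that filter it was 3.07 higher in astrocytes on the log2 scale (SE 0.66, adjusted p = 1.6e-05), and 3.01 higher (adjusted p = 3.2e-05) in 1 fit over all types. A Rax UMI was found in 7.15% ± 1.61 of tanycytes (SD, n = 4) and in 1.03% ± 0.348 of astrocytes. After thinning each cell to 500 UMIs these shares were 2.79% and 0.520%. Median depth was 1143 UMIs in tanycytes and 851 in astrocytes.

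Lhx2, a LIM-homeodomain factor that acts with RAX in eye and tanycyte development, had 139, 226, 165 and 174 CPM in tanycytes of mice 3, 4, 30 and 34. The next type was OPC with 17.5, 28.7, 12.7 and 11.5 CPM. No value of any other of the 8 types exceeded 30.0 CPM, and the groups did not overlap. Tanycytes were 3.87 higher on the log2 scale than ependymal cells (SE 0.19), which held 12.1 ± 1.98 CPM (SD, n = 4). Against astrocytes, at 13.5 ± 11.4 CPM, the log2 fold change was 4.09 (SE 0.20). Lhx2 met the cutoff of the filter on low counts in 4 of 4 tanycyte sums, but in 2 of 4 ependymal and 2 of 4 astrocyte sums. It thus passed the filter through tanycytes, and no p is given. The astrocyte values were 7.25, 11.6, 30.0 and 5.00 CPM, and mouse 30, the highest, also had the highest tanycyte list there, at 224 CPM, where the other mice held 48.5 to 131 CPM. The part of that in the Lhx2 level was not tested. OPC, astrocytes, ependymal cells, endothelial cells and microglia overlapped in Lhx2, and their order was not resolved. An Lhx2 UMI was present in 18.2% ± 2.81 of tanycytes and in 1.67% ± 0.485 of ependymal cells, whose median depths were 1143 and 1131 UMIs, and in 0.722% ± 0.993 of microglia.

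Six3, a sine oculis homeodomain factor of the rostral forebrain and eye, had 117, 184, 164 and 161 CPM in tanycytes of mice 3, 4, 30 and 34. Ependymal cells had 9.70, 14.4, 23.2 and 58.9 CPM and astrocytes 15.9, 19.3, 34.0 and 26.5 CPM. Tanycytes were above both in every mouse, and ependymal cells of mouse 34 stood far above those of the others. The log2 fold change of tanycytes was 2.46 against ependymal cells (SE 0.20), and 3.36 without mouse 34. Six3 met the cutoff of the filter on low counts in 3 of 4 ependymal sums. It thus passed through tanycytes, and no p is given there. Against astrocytes the log2 fold change of Six3 was 2.70 (SE 0.14, adjusted p = 7.5e-18). In mouse 34 the tanycyte list in ependymal cells was 277 CPM, and the other mice held 219 to 240 CPM. Ependymal cells with no UMI of that list, 1140 cells chosen after the values were seen, held 9.24, 20.8, 21.2 and 54.3 CPM of Six3 in mice 3, 4, 30 and 34. Mouse 34 was highest there as well. Over all mice these cells held 27.7 CPM (95% exact Poisson interval 19.8 to 37.7), and the 103 ependymal cells with at least 2 UMIs of the list held 63.3 CPM (38.7 to 97.8). By mouse the latter held 36.3, 0, 99.0 and 80.5 CPM, so mouse 4 went the other way. Mouse 34 gave 46 of the 103 cells, at a median depth of 3472.5 UMIs. The part of tanycyte RNA or of cells joined in 1 droplet was not tested.

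Six6, the closest relative of Six3 among these genes and a factor of the eye and pituitary, was rare. Tanycytes held 45 UMIs, at 9.83, 14.7, 8.43 and 2.24 CPM in mice 3, 4, 30 and 34. Ependymal cells held 2 UMIs and astrocytes 3. Tanycytes were highest in every mouse against both, but Six6 did not pass the filter on low counts and was not tested. The pooled ratio was 9.04 against ependymal cells (95% counting interval 2.36 to 76.9) and 14.6 against astrocytes (4.67 to 73.2). Without mouse 34 these ratios were 15.3 and 37.0, and the first was 5.71 without mouse 3. In the fit without the filter the log2 fold changes were 3.03 (SE 0.79, adjusted p = 6.7e-04) and 3.57 (SE 0.64, adjusted p = 1.1e-06). No Six6 UMI was counted in COP or microglia, with intervals that reached 2.89 and 9.33 CPM.

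Nkx2-1, an NK2 homeodomain factor that specifies the ventral hypothalamus, was spread more widely. Tanycytes had 49.2, 68.1, 42.1 and 45.4 CPM, ependymal cells 45.3, 43.3, 14.8 and 31.3 CPM, and astrocytes 15.9, 20.6, 8.01 and 20.5 CPM in mice 3, 4, 30 and 34. Within each mouse the order was tanycytes, ependymal cells, astrocytes, while the ranges of tanycytes and ependymal cells overlapped across mice. Tanycytes were 1.48 higher than astrocytes on the log2 scale (SE 0.17, adjusted p = 6.7e-09), which was called. Against ependymal cells the log2 fold change was 0.65 (SE 0.20, adjusted p = 0.0070), past the adjusted p but not past the fold limit. Astrocytes against ependymal cells gave -0.91 (SE 0.24, adjusted p = 0.0033), also short of the fold limit. There Nkx2-1 met the cutoff of the filter on low counts in 3 of 4 astrocyte sums and 4 of 4 ependymal sums. Without mouse 3 that adjusted p was 0.075, and without mouse 34 the log2 fold change was -1.17 (adjusted p = 0.0036) and was called.

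In ependymal cells Nkx2-1 stood at 65.8% of its tanycyte level, Six3 at 17.0%, Six6 at 11.6%, Lhx2 at 6.87% and Rax at 2.17%. The tanycyte list without Rax stood at 13.5% there. The shares of Six6 and Rax rest on 2 and 3 ependymal UMIs. The part of tanycyte RNA in these values was not tested. In astrocytes the same list stood at 6.56%, beside 31.7% for Nkx2-1, 18.2% for Rax, 15.3% for Six3, 7.65% for Lhx2 and 4.12% for Six6.

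Between astrocytes and ependymal cells 0 of 4 factors tested were called by edgeR, where 31.8% of all genes tested were called. Nkx2-1, Sox2 and Sox9, 3 of the 4, passed the adjusted p alone, as did 56.9% of all genes. They were also the 3 with an unadjusted p under 0.05, and DESeq2 called 0. Six3 differed by -0.20 (SE 0.29, adjusted p = 0.58), a difference whose sign turned with DESeq2 (0.11) and without mouse 34 (0.66).

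**Figure D2:**
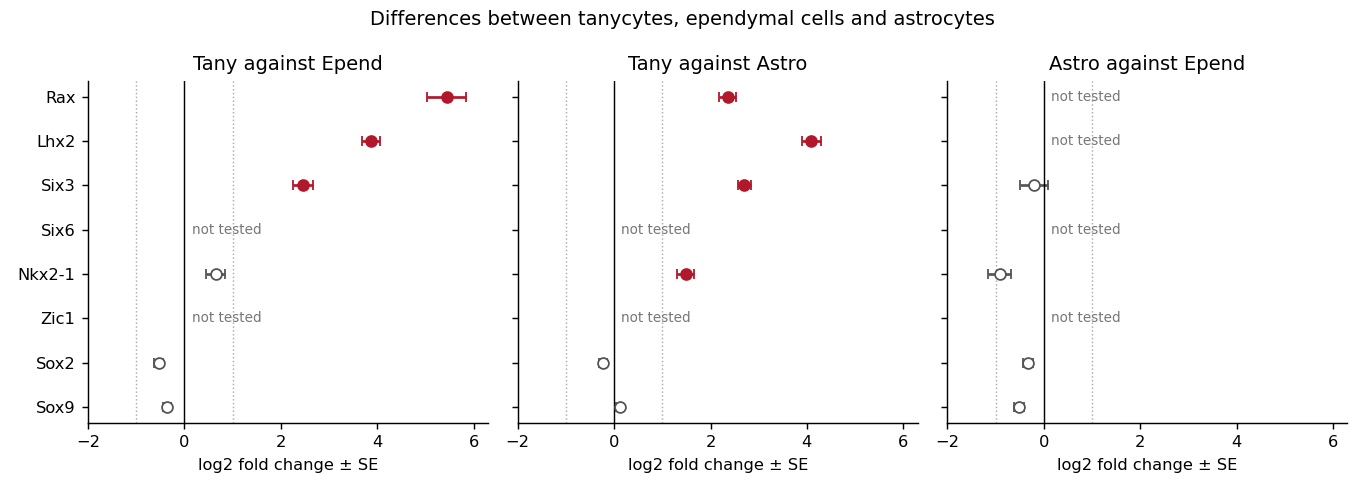
Log2 fold change with its SE (x axis) of each factor (y axis) in 3 comparisons of sums per mouse, n = 4 mice. Filled points were called, open points were not, dotted lines mark a log2 fold change of 1 and -1, and factors below the count filter are marked as not tested. The called points are Rax, Lhx2 and Six3 against ependymal cells and these with Nkx2-1 against astrocytes.

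Within tanycytes, the factors were read in cells with UMIs of a ventral list (Col25a1, Scn7a, Adm, Fgf10) and no dorsal one, and in cells with UMIs of a dorsal list (Vcan, Nr2e1, Slc17a8, Prss56) and no ventral one. Ventral and dorsal here refer to the position of tanycyte subtypes along the ventricle, with the ventral cells over the median eminence. The first class held 457 cells and the second 731, of 4490 tanycytes, while 3215 held UMIs of neither list. Median depth was 1320 and 1234 UMIs per cell. Six3 had 201, 269, 341 and 367 CPM in the ventral class of mice 3, 4, 30 and 34, and 99.3, 167, 122 and 147 CPM in the dorsal class. It was higher in the ventral class in 4 of 4 mice, with no overlap. The log2 fold change was 1.12 (SE 0.17, adjusted p = 4.3e-05), and it was called where 0.328% of all genes tested were called and 0.255% were called higher. The adjusted p alone was passed by 1 of 5 factors, beside 1.2% of all genes. It was the only one of 5 factors tested that was called, and the other 8 genes called were no members.

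Six6 went the same way on few molecules, with 10, 6, 5 and 0 UMIs in the ventral class and 0, 1, 0 and 0 in the dorsal class of mice 3, 4, 30 and 34. The pooled ratio of 31.0 had a counting interval of 4.99 to 1284 and was 14.8 without mouse 3. Six6 passed no filter on low counts here, and its adjusted p without one was 0.0021. Mouse 34 had no Six6 UMI in either class. Nkx2-1 held 63.0 ± 28.6 and 41.0 ± 14.6 CPM (SD, n = 4) in the ventral and dorsal class, higher in 3 of 4 mice, with a pooled ratio of 1.38 whose interval, 0.884 to 2.15, included no difference.

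Rax and Lhx2 were tested and not called between the classes. Rax had 65.9 ± 11.3 and 68.2 ± 9.46 CPM, a log2 fold change of -0.09 (SE 0.28, adjusted p = 0.95). Lhx2 had 176 ± 24.6 and 191 ± 74.2 CPM, a log2 fold change of -0.08 (SE 0.17, adjusted p = 0.93), and its sign turned without mouse 4. Sox2 and Sox9 gave 0.06 (SE 0.15) and 0.10 (SE 0.10), and neither passed the adjusted p. A p that misses the threshold does not show that these levels were equal.

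**Figure D3:**
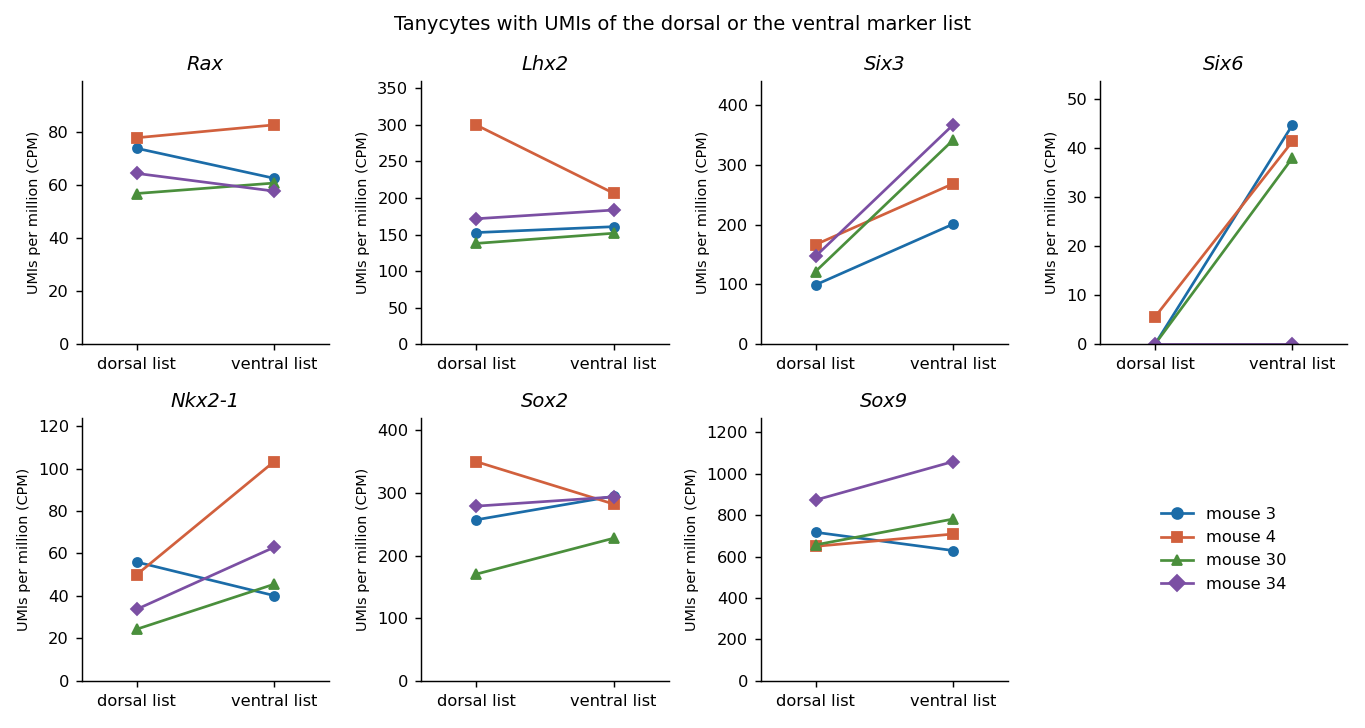
Level of each factor except Zic1 (y axis, CPM) in tanycytes with UMIs of the dorsal or the ventral list (x axis). Lines join the 2 classes of 1 mouse. Six3 rises in all 4 mice and Six6 in 3, while Rax and Lhx2 rise in some mice and fall in others.

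Single tanycytes showed these factors sparsely. Of 4490 tanycytes, 2819 (62.8%) held no UMI of the 5 homeodomain factors, 1313 held UMIs of 1, 300 of 2, 53 of 3 and 5 of 4. Median depth went from 1075 UMIs in cells with none to 4827 in the 5 cells with 4. The part of depth or of cells joined in 1 droplet was not tested. The ratio of Rax to Lhx2 UMIs in tanycytes was 0.355 over all mice and 0.318 to 0.404 in single mice. Six3 to Lhx2 was 0.890, and 0.814 to 0.994 in single mice. The 3 factors thus kept similar proportions in the tanycytes of these mice. In OPC the ratio of Six3 to Lhx2 was 3.00 (95% exact interval 1.85 to 5.04), above that of tanycytes (0.810 to 0.978). It was 1.71 to 5.40 in OPC of single mice. Ependymal cells, at 2.54 (1.62 to 4.08), and astrocytes, at 2.40 (1.71 to 3.41), were above tanycytes too.

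OPC held the second highest Six3. Their values were 43.8, 49.2, 42.5 and 61.9 CPM in mice 3, 4, 30 and 34, above astrocytes in every mouse. COP, the next stage towards oligodendrocytes, had 4.01, 10.2, 4.79 and 10.9 CPM. Every OPC value lay above every COP value. The fitted log2 fold change of COP against OPC was -2.69 (SE 0.42). Six3 met the cutoff of the count filter in 4 of 4 OPC sums and 0 of 4 COP sums, so it had to come out lower, and no p is given. Six3 and Sox2 were the 2 of 3 factors called there, beside 24% of all genes tested. Of all genes tested 10.8% were called higher, as Sox2 was, and 13.2% lower. The adjusted p alone was passed by 3 of 3 factors and by 46.5% of all genes. The tanycyte list without Rax stood at 7.42% of its own level in OPC and 1.14% in COP, and Six3 stood at 31.5% and 4.77%. The part of tanycyte RNA was not tested. Lhx2 also had fewer UMIs in COP, 2 against 23 in OPC, and gave a log2 fold change of -3.14 without the count filter (adjusted p = 0.0018) and -3.18 in 1 fit over all types (adjusted p = 0.0023). In astrocytes Six3 was 0.87 lower than in OPC on the log2 scale (SE 0.24, adjusted p = 0.0018), short of the fold limit. Six3 met the filter's cutoff there in 2 of 4 astrocyte sums and 4 of 4 OPC sums, so it passed through OPC. Without mouse 30 it was 1.01 lower and was called, and with DESeq2 and at equal totals the adjusted p was 0.094 and 0.063.

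Sox2, which maintains neural progenitors, followed another order. COP had 423, 448, 388 and 402 CPM and ependymal cells 428, 448, 270 and 463 CPM in mice 3, 4, 30 and 34, and these neighbours overlapped. Astrocytes had 293, 335, 216 and 342 CPM and tanycytes 260, 316, 183 and 292 CPM. Mouse 30 was lowest in each of these 4 types, yet not in OPC or oligodendrocytes. Tanycytes were lower than ependymal cells in 4 of 4 mice, with a log2 fold change of -0.54 (SE 0.09, adjusted p = 5.2e-06), and lower than astrocytes with -0.22 (SE 0.08, adjusted p = 0.026). Astrocytes were lower than ependymal cells with -0.32 (SE 0.11, adjusted p = 0.016). None of these passed the fold limit, and those against astrocytes and of astrocytes lost the adjusted p in some alternatives, where it reached 0.28 and 0.14.

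Along the oligodendrocyte lineage Sox2 was 194 ± 13.3 CPM in OPC, 415 ± 26.4 CPM in COP and 83.9 ± 3.72 CPM in oligodendrocytes (SD, n = 4). The ranges of the 3 stages did not overlap. COP were 1.11 higher than OPC (SE 0.12, adjusted p = 2.0e-13) and oligodendrocytes 2.06 lower than COP on the log2 scale (SE 0.11, adjusted p = 2.9e-27). In the second comparison Sox2 was the 1 factor of 2 tested that was called, where 27.1% of all genes tested were and 13.3% were called lower. Sox2 and Sox9, 2 of 2, passed the adjusted p alone, beside 55.1% of all genes. A Sox2 UMI was found in 46.7% ± 7.73 of COP and 17.9% ± 3.34 of OPC. COP were deeper, with a median of 1771 against 1020 UMIs per cell, and after thinning to 500 UMIs the shares were 17.7% and 9.68%.

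Sox9, which specifies glia and is kept by astrocytes, was highest in ependymal cells, at 896, 1016, 903 and 1149 CPM in mice 3, 4, 30 and 34. Tanycytes had 637, 683, 704 and 868 CPM and astrocytes 642, 597, 586 and 739 CPM. Ependymal cells lay above both without overlap, and tanycytes and astrocytes overlapped. The log2 fold change of tanycytes was -0.37 against ependymal cells (SE 0.08, adjusted p = 2.8e-04) and 0.12 against astrocytes (SE 0.07, adjusted p = 0.17). Astrocytes against ependymal cells gave -0.51 (SE 0.10, adjusted p = 2.8e-04). These differences were below the fold limit.

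Astrocytes exceeded OPC in Sox9 by 3.19 on the log2 scale (SE 0.14, adjusted p = 1.7e-28), the 1 call among 3 factors tested, beside 23.2% of all genes tested and 12.4% called higher. The adjusted p alone was passed by 3 of 3, beside 48% of all genes. In OPC, COP, oligodendrocytes, endothelial cells and microglia Sox9 stood at 14.6%, 7.52%, 12.3%, 15.9% and 18.8% of its astrocyte level. The astrocyte marker list stood at 23.6%, 8.84%, 15.95%, 17.1% and 17.5% of its own level in the same types. Single cells held up to 8 Sox9 UMIs in OPC and up to 6 in endothelial cells and microglia. The part of astrocyte RNA in the Sox9 of these 5 types was not tested. Sox2 stood at 65.4% of its astrocyte level in OPC, 140% in COP, 28.3% in oligodendrocytes, 15.3% in endothelial cells and 8.02% in microglia. The step of Sox9 from OPC to COP (-0.87, SE 0.23, adjusted p = 6.8e-04) and from COP to oligodendrocytes (0.92, SE 0.20, adjusted p = 4.3e-05) had the direction of the astrocyte list, and the first had an adjusted p of 0.052 with DESeq2. Without mouse 4 the second was 1.12 and was called. The ratio of Sox2 to Sox9 UMIs was 0.365 in tanycytes, 0.408 in ependymal cells, 0.465 in astrocytes, 2.29 in OPC and 8.77 in COP, in OPC and COP on 118 and 61 Sox9 UMIs whose source was not tested.

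**Figure D4:**
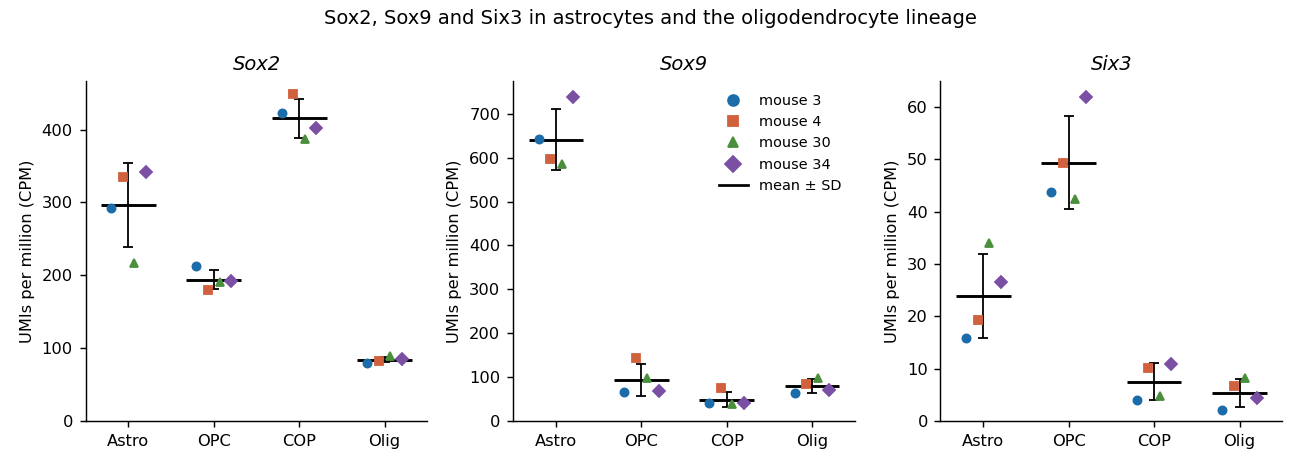
Levels of Sox2, Sox9 and Six3 (y axis, CPM) in astrocytes, OPC, COP and oligodendrocytes (x axis). Points are mice, and bars are the mean and SD of 4 mice. Sox2 is highest in COP, Sox9 in astrocytes and Six3 in OPC.

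Zic1 was nearly absent from tanycytes, ependymal cells and astrocytes, with 10, 6 and 14 UMIs. Endothelial cells had 113, 99.6, 129 and 139 CPM in mice 3, 4, 30 and 34, and no other of the 8 types exceeded 12.7 CPM in any mouse. VLMC, fibroblast-like cells of vessels and meninges, held 37 UMIs in 68 cells, at a pooled 298 CPM (95% exact Poisson interval 209 to 410). Only mouse 30 had at least 20 VLMC, at 226 CPM, so VLMC entered no test. Over pooled UMIs VLMC exceeded endothelial cells 2.42-fold (counting interval 1.66 to 3.44), and 3.67-fold without mouse 30. VLMC of mice 3, 4 and 34, on 5, 6 and 7 UMIs, stood at 894, 272 and 559 CPM. A Zic1 UMI was found in 12.9% ± 2.37 of cells labelled Endo and in 0.203% ± 0.407 of microglia.

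The cells labelled Endo also carried markers of mural cells, the pericytes and smooth muscle cells of the vessel wall: the mural list (Rgs5, Kcnj8, Acta2, Vtn, Pdgfrb) summed to 3246 to 3620 CPM in the 4 mice, against 7365 to 7915 CPM for the endothelial list. VLMC of mouse 30 carried the mural list too, at 2709 CPM. In a description chosen after the values were seen, 703 of these cells with at least 2 mural UMIs held 193 Zic1 UMIs, at 177 CPM (95% exact Poisson interval 153 to 204). The 389 cells with no mural UMI held 6 Zic1 UMIs, at 14.7 CPM (5.38 to 31.9). The first class had 180, 134, 182 and 190 CPM and the second 16.9, 0, 0 and 22.0 CPM in mice 3, 4, 30 and 34, with no overlap. Cells with mural UMIs were also deeper, with medians of 1095 to 1532 UMIs against 837 to 944, and the part of depth was not tested. The gene whose levels were most like those of Zic1 over the sums of the 9 types was Vtn, itself on the mural list (Pearson's r = 0.91).

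**Figure D5:**
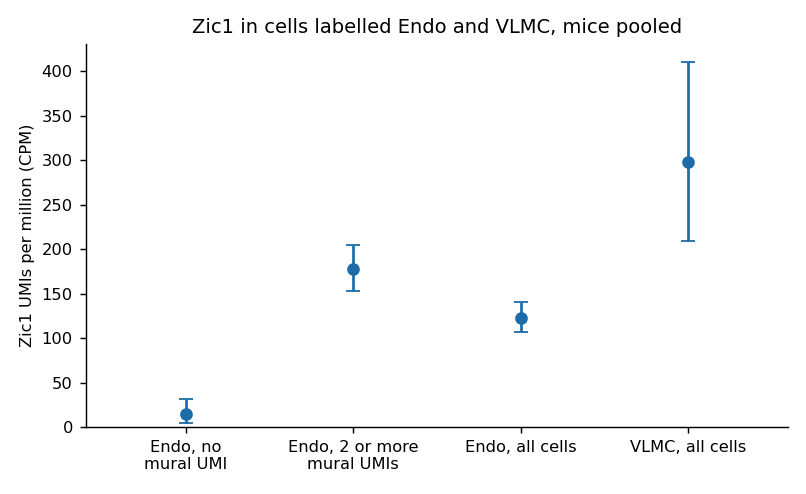
Zic1 level over pooled UMIs of all 4 mice (y axis, CPM) in cells labelled Endo with no or with at least 2 mural-list UMIs, in all cells labelled Endo and in VLMC. Bars are 95% exact Poisson intervals and cover counting error only. Endo cells without mural UMIs stand at 14.7 CPM and those with them at 177 CPM.

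Likeness to each factor was described by Pearson's r of log2(CPM + 1) over 33 sums per mouse and type, among 10915 genes with a mean of at least 20 CPM in some type. The sums share libraries and depth, and no test was made. Col23a1 was most like Lhx2 (0.90), and Lmo3, Cdh2 and S100a4 were most like Six3 (0.89, 0.88 and 0.86), all highest in tanycytes. The nearest genes to Nkx2-1 were Tekt1, Ccdc148 and Saxo2 (0.87, 0.86 and 0.85), which were highest in ependymal cells. Sox9 was followed most closely by Mlc1, an astrocyte membrane protein (0.97), with Tmem47 (0.95) and Mt3 (0.94). Sox2 was near to Prtg (0.91) and Jakmip1 (0.90), and Zic1 to Vtn, Foxc1 and Slc6a20a (0.91, 0.90 and 0.89). Rax and Six6 reached only 0.79 (6330403K07Rik) and 0.76 (Apoa1), and both had sparse counts. Lhx2 was next like 6330403K07Rik (0.82) and Plxnc1 (0.81).

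Other regional and glial transcription factors were read from a list of 81 genes, of which 74 were in the table. Between tanycytes and ependymal cells 4 of 10 regional factors tested were called higher and 3 lower, and 4 of 27 glial factors were called higher and 3 lower. That is 70% of the regional and 25.9% of the glial factors tested, where 19.8% of all genes tested were called and 6.73% called higher. Their median log2 fold changes were 0.35 and -0.02, beside 0.03 over all genes. Tbx3, a T-box factor of the ventral hypothalamus, had means of 38.9 and 1.13 CPM in tanycytes and ependymal cells. Fezf2, a forebrain zinc finger factor, had 30.4 and 1.62 CPM, Nr2e1 39.5 and 6.86 CPM, and Irx5 0.789 and 25.9 CPM. The lower mean of each of these 4 genes lay under the filter's cutoff of 11.7 CPM, and no p is given for them. Foxj1, the master factor of motile cilia, was lower (-2.96, SE 0.10, adjusted p = 6.1e-27). The Notch target Hey1 had 11.8 and 103 CPM, with the tanycyte mean at about the cutoff, and no p is given for it. Other calls over these lists may also be of genes that passed the filter through 1 type alone, which was not counted, so the counts are a description. Foxj1 was also an ependymal marker and is no independent reading.

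Against astrocytes 4 of 13 regional factors tested were called higher and 5 lower, and 4 of 32 glial factors were called higher and 17 lower, beside 21.2% of all genes called, with medians of 0.11 and -1.09 beside -0.03 over all genes. Foxj1 was higher by 2.35 on the log2 scale, in 4 of 4 mice. It is on the ependymal list, which stood at 13.4% of its ependymal level in tanycytes and 3.97% in astrocytes. The part of ependymal RNA was not tested. Fezf2 and Tbx3 had means of 2.18 and 2.97 CPM in astrocytes, and Meis1, the Notch target Hes5 and the hedgehog effector Gli2 had 2.96, 6.33 and 1.88 CPM in tanycytes. All 5 means lay under the filter's cutoff of 7.31 CPM, so these genes passed through the other type and their direction is no result. Between the ventral and dorsal class of tanycytes 0 of 2 regional and 0 of 18 glial factors tested were called by edgeR.

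Between astrocytes and ependymal cells 4 of 11 regional and 13 of 31 glial factors tested were called higher and 2 and 4 lower, where 31.8% of all genes tested were called, and the others were not called. Foxj1 (-5.27) and Nfix (-1.14) were among the lower ones. Hes5, Olig2 and Gli3 had means of 1.32, 2.85 and 4.24 CPM in ependymal cells, and Rfx2 had 11.1 CPM in astrocytes, under a cutoff of 14.3 CPM, and no direction is read for them. Between astrocytes and OPC 2 of 7 regional and 13 of 31 glial factors were called higher and 1 and 8 lower, beside 23.2% of all genes. From OPC to COP, 3 of 25 glial factors tested were called higher and 15 lower, and 1 of 3 regional factors higher and 2 lower, beside 10.8% of all genes called higher and 13.2% lower. Tcf7l2 (3.42) and Sox4 (2.46) were among those higher. Myrf, which drives myelin genes, had a mean of 15.2 CPM in OPC, and Hes5 and Pou3f2 had 4.25 and 13.3 CPM in COP, under a cutoff of 35.1 CPM, so their direction is not read either. From COP to oligodendrocytes 3 of 21 glial factors tested were called higher and 6 lower, and 1 of 4 regional factors each way, beside 27.1% of all genes called. Tcf7l2 (-3.84) was among those lower. Sox4 and Sox6 had 13.3 and 10.9 CPM in oligodendrocytes, under a cutoff of 20.3 CPM.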

How the data were processed

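Hypothalamic cells of male ob/ob mice given FGF1 R50E were used. The submitters' processing notes name Cell Ranger 1.2 and Seurat, and the builds GRCm38, mm10 and GRCh38 without a role. The sources used here do not give other steps. The authors deposited whole UMI counts per gene and cell, a cell type label, a mitochondrial percent and a doublet score, a fraction between 0 and 1 that had a median of 0.058 and was only described. No doublet was removed here. Deposited cells held at least 487 UMIs. Of the table's 16 libraries, 12 were not labelled samples and were not used. Mice 12 and 37 were not analysed here.

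UMI counts were summed per mouse and type (44756 to 2319177 UMIs where at least 20 cells). No 2 mice were duplicates (chi-square per degree of freedom between tanycyte sums 2.72 to 4.27). Types were compared with edgeR 4.0.16 (quasi-likelihood, TMM, filterByExpr, Benjamini-Hochberg over all genes, R 4.3.3). Mouse was a block because all types of a mouse come from 1 animal. SEs were derived from the F statistic. The fit was tested on simulated data. Alternatives were DESeq2 1.42.0, no scaling, no filter, no block, 1 fit over all types, equal totals, mitochondrial percent below 15 and leaving out each mouse. Intervals cover counting error only. Named genes were the members, the 3 most like each, and up to 3 called other factors per direction. Members and lists were chosen with earlier results of these data known. A few genes that this rule named are not reported here.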

Additional observations from a re-analysis of the deposited data

Results flagged for a closer look

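In 12 of 77 sets of 4 values (a factor in a type or tanycyte class), 1 mouse stood apart from the other 3 by the gap relative to the range. For normally distributed values chance alone marks about 1 set in 20. A set with UMIs in 1 mouse only is always marked, so that rate does not hold for sparse counts and no excess is read. In 10 of them the mouse that stood apart had fewer than 5 UMIs of the gene.

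On more UMIs, Sox9 in COP was 74.7 CPM in mouse 4 (22 UMIs) against 38.3 to 40.1 CPM in the others, and Sox9 in endothelial cells was 79.7 CPM in mouse 30 (21 UMIs) against 108 to 110 CPM. Six6 in the ventral class of tanycytes was 0 CPM in mouse 34 against 37.9 to 44.7 CPM.

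The other sets had UMIs in 1 mouse only, 1 or 2 in each. They were Rax in OPC (mouse 4, 8.20 CPM), Six3 in microglia (mouse 34, 8.42 CPM), Six6 in endothelial cells (mouse 4, 4.33 CPM), Nkx2-1 in microglia (mouse 30, 20.3 CPM), Zic1 in COP (mouse 34, 3.62 CPM), Zic1 in microglia (mouse 34, 8.42 CPM), Six6 in the dorsal class of tanycytes (mouse 4, 5.55 CPM), and Zic1 in the ventral class (mouse 34, 5.24 CPM) and the dorsal class (mouse 30, 8.11 CPM).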

How the results depend on the processing

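All 12 member differences called kept their call and sign in the 131 values that the alternatives gave for them. Of the 12, Rax against ependymal cells and Six3 in COP against OPC passed the count filter through 1 type alone. So did tanycyte Lhx2 against ependymal cells and astrocytes, where 2 of 4 sums of the lower type met the cutoff. Six3 against ependymal cells did as well, with 3 of 4 ependymal sums. These calls say nothing about stability. Of 182 values of members that were not called, 8 were called and 5 turned sign. Removing the replicate block of mouse changed no member's call (0 of them), and Six3 against ependymal cells was then 2.46.

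With sums thinned to equal totals, which leaves fewer genes to test, 1109, 1327, 1024 and 1051 genes were called in Tany against Epend, Tany against Astro, Astro against OPC and Olig against COP (1743, 2138, 1604 and 1681 before), and 14 between the tanycyte classes (9 before). Without the count filter 2725, 2301 and 2594 genes were called in Astro against OPC, COP against OPC (1172 before) and Olig against COP, and 17 between the classes. One fit over all types called 2142 in COP against OPC, and DESeq2 called 4 between the classes. Members called became 1 of Astro against Epend with no scaling (Nkx2-1), without the filter and in 1 fit over all types (Rax in both). In Astro against OPC they became 2 with no scaling and 3 without the filter and in 1 fit over all types. They became 2 in Olig against COP at equal totals, and 2 between the classes without the filter. Where no construction shows the cause, the cause was not tested.

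Leaving out 1 mouse at a time gave 9 to 16 genes called between the classes (16 without mouse 3). It gave 0 to 1 members called in Astro against Epend, beside 2449 to 2976 of all genes. In Astro against OPC it gave 1 to 4 (4 without mouse 30), beside 1617 to 1947 genes, where 3 members were tested with all mice. In Olig against COP it gave 1 to 2, beside 1544 to 2098 genes. Signs turned for Six3 in Astro against Epend (0.11 with DESeq2, and -0.42 to 0.66 over the mice left out), for Sox2 between the classes (-0.035 at equal totals, and -0.0071 to 0.16) and for Lhx2 between the classes (-0.16 to 0.073). Of 64 shares of cells, 35 moved by more than 1 SD when cells were thinned to 500 UMIs.

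A sample of 4 mice, 1 treatment group and medians of 909 to 1066 UMIs per cell limit these data. Members with few UMIs, such as Six6 and Zic1 outside vessels, were at the limit of detection, and labels made from expression limit what the p-values say.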

Other observations

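Mouse 4 had the highest tanycyte level of 6 of the 8 factors. The submitters' 2 clusters that hold most tanycytes (2758 and 1731 cells) differed in several factors. Values were higher in the second in 4 of 4 mice for Six3, with 116 ± 31.1 and 202 ± 46.3 CPM (SD, n = 4), Rax, with 53.8 ± 9.76 and 71.5 ± 14.3 CPM, Lhx2, with 158 ± 19.3 and 196 ± 54.0 CPM, and Six6, with 6.17 ± 4.68 and 11.7 ± 5.87 CPM. Sox2 was lower in the second in 4 of 4 mice, with 292 ± 55.7 and 226 ± 79.2 CPM. These clusters were made from expression, so the values are a description only.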
